A study of Mus musculus with 18 samples.

Results

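Transcripts of the lysosomal proton pump, the cathepsins and the lysosome-associated membrane proteins (LAMPs) were measured by bulk RNA sequencing in sorted regulatory T cells (Tregs), CD4 T cells that depend on the factor Foxp3 and hold other immune cells in check. Members were chosen by symbol, as protein-coding genes that begin with Atp6v, Atp6ap or Lamp and a digit, or that read Cts and 1 letter. This gave 46 of the 46078 genes in the deposited tables, of which 20395 were protein coding. At least 1 count was found for 39 members. The other 7 (Ctsj, Ctsq, Ctsr, Ctsm, Atp6ap1l, Atp6v1e2 and Lamp5) were at 0 in all 18 libraries, where 3 counts, the limit that a count of 0 allows, come to between 0.133 and 0.502 CPM (counts scaled to a common library size) depending on the library. A further 4 were nearly absent: Atp6v1c2 had 1 count in spleen, Atp6v0a4 had 1 in bone and 1 in muscle, Ctsg had 7 in bone, and Atp6v1b1 had 8, all in skin. After the filter on low counts 35 members were tested in bone, muscle, skin and spleen, and 33 in heart and spleen, where Lamp3 and Atp6v0e2 did not pass it. The V0 subunit gene Atp6v0a2 carries another biotype in the tables, and Tcirg1, which encodes the a3 subunit, has another name; both fall outside the rule.

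The vacuolar ATPase pumps protons into lysosomes and endosomes. Its cytosolic V1 sector hydrolyses ATP and drives the membrane-bound V0 sector, through which protons pass. The acid interior activates the cathepsins, proteases that degrade proteins and trim antigens, and LAMP1 and LAMP2 are the main glycoproteins of the lysosomal membrane. In T cells lysosomes serve protein turnover, nutrient sensing by mTORC1 and, in cytotoxic cells, granule release.

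All mice were males of the Foxp3(DTR/GFP) strain aged 10 weeks, in which the diphtheria toxin receptor and GFP are expressed from the Foxp3 locus. Tregs of injured tissue were sorted on day 7 after a calvarial bone defect, a volumetric loss of quadriceps muscle, a full-thickness punch wound of the skin, or an infarct after the left coronary artery was ligated. There were 3 libraries per injured tissue, each pooled from 3 mice, and 6 of uninjured spleen, for which pooling is not stated. Since no uninjured bone, muscle, skin or heart was used here, tissue and injury cannot be told apart. Levels are CPM scaled by TMM. Folds were adjusted for the naming style of the libraries, called Endo (spleen 1 to 3, skin 1 to 3 and heart 1) and Tregs (all others), so that bone and muscle folds rest on spleen 4 to 6 and skin folds on spleen 1 to 3. For 2 bone libraries, called b and c here, the labels do not say which is replicate 2 and which 3.

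Library totals ran from 5970346 to 22635760 counts, with Endo spleen at 5970346 to 7230842. Foxp3 lay at 344 to 444 CPM in spleen and at 587 to 837 CPM in the injured tissues. Genes of small RNAs took 7.71% to 13.1% of counts in spleen and 2.69% to 9.64% in the injured tissues. Cathepsins and LAMPs are abundant in macrophages. The summed level of 11 macrophage and monocyte markers was 23.9 to 43.2 CPM in spleen. Bone had 22.6 to 30.4 CPM, muscle 13.6 to 24.6, skin 9.97 to 26.9, and heart 9.52 to 82.6, where heart 1 was the high library. Of 9 tested, 1 rose in each tissue, and 3, 4, 2 and 0 fell in bone, muscle, skin and heart. C1qa was at 0 in every bone and muscle library, and C1qc in every bone library, while Itgam was 0.844 to 2.28 CPM in spleen and 4.09 to 20.3 in the injured tissues. Dendritic cell markers, 8 in all, summed to 4.14 to 94.6 CPM in spleen. Bone had 38.2 to 77.5 CPM of them, muscle 35.3 to 74.3, skin 46.9 to 91.2 and heart 16.6 to 33.6. Of these markers 5 of 8 tested rose in skin, 2 in muscle, 1 in bone and 2 of 6 in heart. All 6 B cell markers fell in muscle and in skin, 1 fell in bone and 2 in heart. Fibroblast markers summed to 0 to 11.8 CPM in spleen and 14.8 to 48 in bone. Muscle had 1.96 to 45 CPM of them, skin 9.82 to 107 and heart 6.31 to 8.89. Muscle and heart muscle markers summed to 56.8 CPM in muscle 2 and to 2.19 and 3.89 in muscle 1 and 3. Neutrophil markers summed to 1.41 to 28.7 CPM in spleen and to 0.659, 39.6 and 14.2 in heart 1, 2 and 3. The part of these cell types in the members' changes was not tested. In bulk samples fewer cells of a type and less RNA per cell cannot be told apart.

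Promoters are shown first because many lysosomal genes carry the CLEAR element, the site of the factors TFEB and TFE3, built on the E-box CACGTG. Promoters (250 bases before the start site and 50 after it) were given by RefSeq for GRCm38.p6 for 36 of the 46 members. None was given for Atp6ap1l, Atp6v1b2, Atp6v1c1 and Ctse. The same holds for Atp6v0d2, Atp6v1g1, Atp6v1h, Ctsb, Ctsh and Ctsw, which each passed in a comparison with spleen. Each motif reads the same on both strands, TCACGTGA contains CACGTG, and the full CLEAR palindrome, which has 1 more base on each side, contains both. The 36 members had 41 promoters in all. CACGTG was found in 9 of these 41 (22%), against 7.15% of all 32851 promoters. TCACGTGA was found in 5 of 41 (12.2%; Atp6v0d1, Atp6v0e, Atp6v1a, Ctsa and Ctsd), against 0.974%, and the full palindrome in 0, against 0.326%. The members with CACGTG were Atp6v0b, Atp6v0d1, Atp6v0e, Atp6v1a, Ctsa, Ctsd, Ctsf, Ctsl and Lamp1. Of these Ctsd, Ctsf and Ctsl did not pass in any comparison with spleen. A match is a string of letters, not a measured binding site. The windows below run from 120 bases before the start site to 20 bases after it, with CACGTG in capitals: Lamp1 (chr8:13159041-13159180, plus strand), Lamp2 (chrX:38456441-38456580, minus), Ctsa (chr2:164833653-164833792, plus), Atp6v0d1 (chr8:105566045-105566184, minus) and Atp6v0b (chr4:117887310-117887449, minus). In this order they hold 4, 0, 2, 1 and 2 matches, and no relation of matches to direction was tested. All windows shown are of members that passed against spleen, and Ctsd, which holds TCACGTGA and did not pass, is not shown.
Lamp1: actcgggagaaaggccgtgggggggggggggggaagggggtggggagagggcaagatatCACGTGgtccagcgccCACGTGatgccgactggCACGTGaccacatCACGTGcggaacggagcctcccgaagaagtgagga
Lamp2: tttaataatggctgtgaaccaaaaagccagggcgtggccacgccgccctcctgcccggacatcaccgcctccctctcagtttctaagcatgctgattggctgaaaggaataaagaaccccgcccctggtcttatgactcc
Ctsa: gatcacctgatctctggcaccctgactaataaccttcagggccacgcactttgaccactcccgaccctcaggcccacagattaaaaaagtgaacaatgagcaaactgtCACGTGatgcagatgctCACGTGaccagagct
Atp6v0d1: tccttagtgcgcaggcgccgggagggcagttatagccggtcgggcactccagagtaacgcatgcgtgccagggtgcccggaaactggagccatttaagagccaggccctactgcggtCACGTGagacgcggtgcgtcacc
Atp6v0b: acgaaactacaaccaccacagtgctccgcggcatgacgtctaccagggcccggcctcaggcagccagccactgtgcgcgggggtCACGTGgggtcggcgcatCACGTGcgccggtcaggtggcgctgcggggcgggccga

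Against spleen, Tregs of injured skin, muscle and heart had more Lamp2, Ctsh, Ctsz, Ctsa, Atp6v0a1 and Atp6v0d1 RNA and less Lamp1 RNA. In bone Lamp1 was the 1 member that passed the test. In bone 0 members rose and 1 fell of 35 tested, where 14.8% of all genes tested were called at FDR 0.05 (8.48% higher, 6.32% lower). In muscle 8 rose and 3 fell of 35, with 25.5% of all genes called (14.2% higher, 11.3% lower). In skin 12 rose and 2 fell of 35, with 27.8% of all genes called (15% higher, 12.8% lower). In heart 7 rose and 1 fell of 33, with 20.3% of all genes called (11.8% higher, 8.46% lower). The members' shares were 2.86%, 31.4%, 40% and 24.2%. The median log2 fold change of the members was -0.11, 0.12, 0.39 and 0.18 in bone, muscle, skin and heart, and that of all genes tested was 0.01, -0.01, -0.07 and -0.03. Leaving out 1 library moved the count to 3 in bone (without bone c, spleen 3 or spleen 6; 2 without spleen 1 or 2), to 5 in muscle (without muscle 2; 7 without spleen 4 or 5) and to 5 in heart (without heart 2). All genes called were 1928 to 2604 over these bone settings, beside 2312 in the main model. Without muscle 2 they were 3314 of 16399, beside 3984 of 15617. Without heart 2 they were 2241 of 15444, beside 3043 of 15025. In skin 7 members were called without spleen 1 and 2 together, where all genes called fell from 4342 of 15617 to 2548 of 15323. These 4 comparisons share the spleen libraries. Calls are those of the quasi-likelihood test of edgeR, adjusted over all genes by the method of Benjamini and Hochberg. The summed level of all members was 1787 ± 186 CPM in spleen (SD, n = 6). With n = 3 each, bone had 1665 ± 91.4, muscle 1866 ± 210.4, skin 2300 ± 111 and heart 1967 ± 72.8 CPM.

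**Figure D1:**
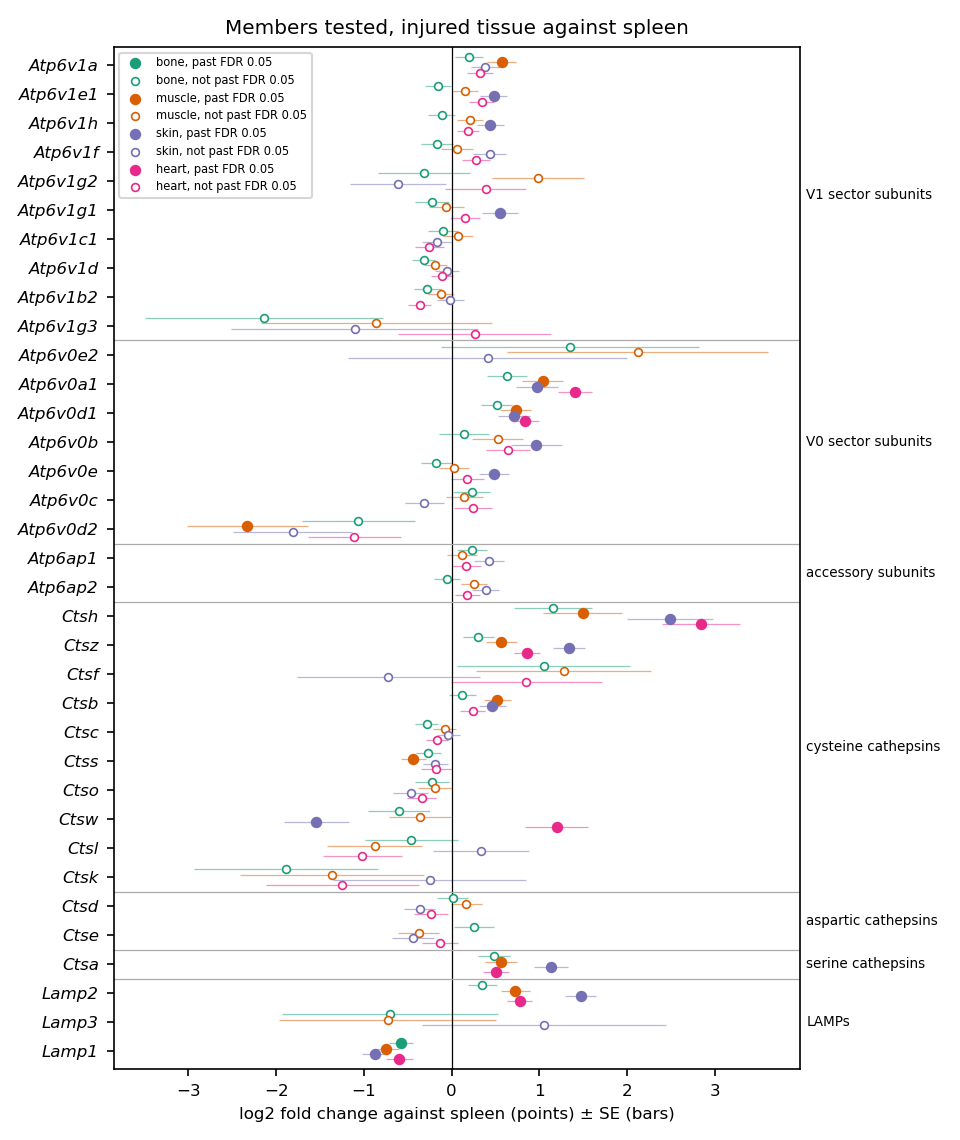
Log2 fold change of each tested member against spleen (x axis) by gene and role (y axis), with 1 point for each tissue and bars of 1 SE. Filled points passed FDR 0.05; Lamp1 lies left of 0 and Lamp2 right of 0 in all 4 tissues, and the bone point of Lamp2 is open.

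LAMP1 and LAMP2 share a similar structure, and LAMP2 also serves in autophagy and cholesterol export. Lamp1 lay at 107 to 172 CPM in the 6 spleen libraries, with a median of 135. It was 78.6, 81.8 and 78.8 CPM in bone, 57.3, 81.3 and 73.9 in muscle, 94.6, 83.3 and 90.1 in the skin, and 87.9, 78.6 and 96.4 in heart. Every injured library was below every spleen library. In log2 terms the change was -0.58 ± 0.14 (SE) in bone (adjusted p = 0.0063), -0.74 ± 0.14 in muscle (3.9e-04), -0.87 ± 0.14 in skin (5.3e-05) and -0.60 ± 0.16 in heart (0.014). The heart call was lost without heart 1, without heart 2 and with libraries of 1 naming style (adjusted p at most 0.11). Of the Lamp1 exons 9.3% of the bases overlap Grtp1 on the other strand, and the strand setting of the counting is not given in the sources used here.

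Lamp2 lay at 59.1 to 86.1 CPM in spleen, with a median of 68.3. It was 108, 96.2 and 85.5 CPM in bone, 114, 156 and 106 in muscle, 162, 201 and 194 in the skin, and 119, 127 and 124 in heart. Only bone overlapped spleen, by its lowest library. The log2 fold change was 0.73 ± 0.17 in muscle (adjusted p = 0.0023), 1.47 ± 0.17 in skin (6.1e-07) and 0.78 ± 0.14 in heart (0.0017), and 0.35 ± 0.17 in bone (0.18), which did not pass. The ratio of Lamp2 to Lamp1 scaled counts, chosen after the values were seen and given with no test, was 0.356 to 0.685 in spleen. Bone had ratios of 1.09 to 1.38, muscle 1.43 to 2, skin 1.71 to 2.42 and heart 1.28 to 1.61. No injured library overlapped a spleen library in this ratio. Its level depends on the exon lengths of 2675 bases for Lamp1 and 9552 for Lamp2, so only its differences between libraries can be read. Lamp3, a LAMP of mature dendritic cells, was at most 1.97 CPM in any library and did not pass in bone, muscle or skin.

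**Figure D2:**
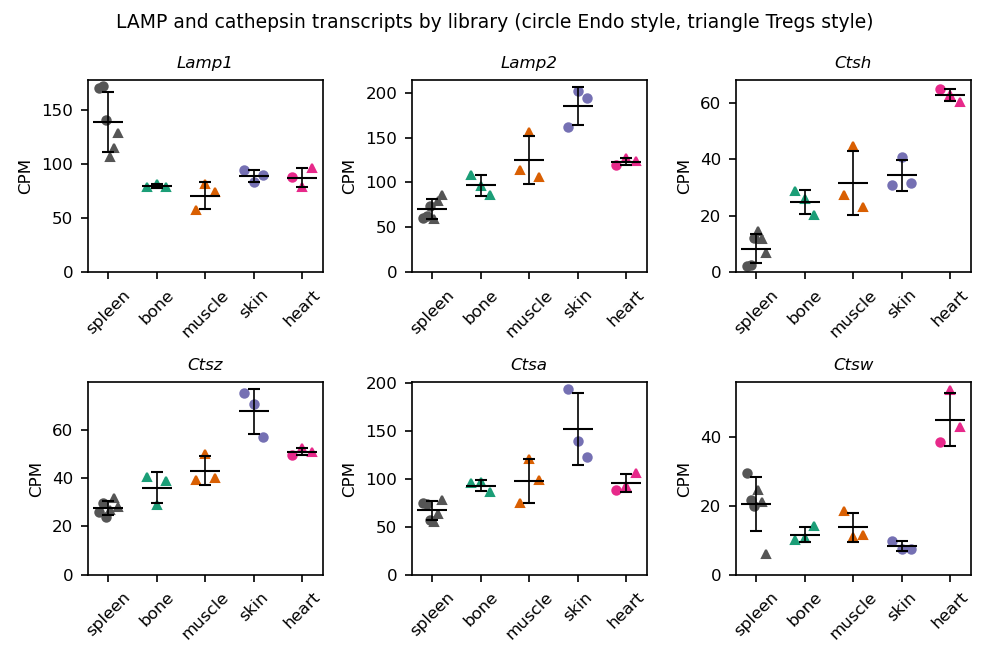
TMM-scaled CPM (y axis, from 0) in each library of 6 members by tissue (x axis), with circles for the Endo and triangles for the Tregs naming style, and black bars for the mean ± SD. Lamp1 is higher in all 6 spleen libraries than in any injured library, and Ctsw is highest in the 3 heart libraries.

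Of the V0 subunits, 2 rose and 1 fell of 7 tested in muscle, 4 rose in skin, 2 of 6 rose in heart and 0 of 7 passed in bone, where 2 had an unadjusted p below 0.05. The shares called were 0%, 42.9%, 57.1% and 33.3% in bone, muscle, skin and heart, beside 14.8%, 25.5%, 27.8% and 20.3% of all genes tested. These are shares past FDR 0.05. The share of all genes at an unadjusted p below 0.05 was not counted, so such counts, here and below, have no background. The summed V0 level was 171.5 ± 29.7 CPM in spleen, 175.4 ± 17.8 in bone, 197 ± 20.7 in muscle, 264 ± 11.8 in the skin and 236 ± 13.8 in heart. Atp6v0a1 encodes the a1 isoform of the a subunit. It lay at 11.9 to 14.2 CPM in spleen, with a median of 13.1. It was 22.9, 24.2 and 12.9 CPM in bone, 23.9, 31.9 and 24.2 in muscle, 28.2, 24.9 and 27.3 in the skin, and 34.6, 43.7 and 26.1 in heart. Muscle, skin and heart lay above all spleen libraries, and bone c among them. Its log2 fold change was 1.04 ± 0.23 in muscle (adjusted p = 0.0019), 0.97 ± 0.24 in skin (0.0036) and 1.41 ± 0.20 in heart (1.8e-04), and 0.63 ± 0.23 in bone (0.072). The bone value passed without bone c, at 0.87 (adjusted p = 0.0092). Without spleen 1 and 2 together the skin call was lost (adjusted p = 0.073).

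Atp6v0d1 encodes the d1 isoform of the subunit that couples the sectors. It lay at 27.7 to 45.4 CPM in spleen, with a median of 34.3. It was 58.6, 41.9 and 39.0 CPM in bone, 49.6, 60.2 and 52.2 in muscle, 63.2, 64.8 and 73.1 in the skin, and 62.8, 61.9 and 64.4 in heart. Muscle, skin and heart did not overlap spleen. The log2 fold change was 0.73 ± 0.18 in muscle (adjusted p = 0.0037), 0.71 ± 0.18 in skin (0.0046) and 0.84 ± 0.16 in heart (0.0018), and 0.52 ± 0.18 in bone (0.053). The replicate block ended the muscle and heart calls (adjusted p = 0.097 and 0.051), and the bone value passed without bone c (0.031), without spleen 2 (0.049) and without spleen 3 (0.035).

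Its isoform Atp6v0d2, known from osteoclasts and macrophages, was rarer. It lay at 2.75 to 7.45 CPM in spleen, with a median of 3.96, and was 2.33, 1.68 and 2.11 in bone, 1.09, 0.604 and 0.828 in muscle, 0.369, 3.16 and 0.893 in the skin, and 1.79, 0.944 and 3.62 in heart. Bone and muscle lay below every spleen library. On the log2 scale the change was -2.33 ± 0.69 in muscle (adjusted p = 0.015), which was lost without muscle 2 or spleen 5 (adjusted p at most 0.07), -1.81 ± 0.68 in skin (0.051), -1.06 ± 0.64 in bone (0.31) and -1.11 ± 0.53 in heart (0.16). Skin passed without skin 2 (0.0072) and heart without heart 3 (0.041). Skin also passed with no style term (0.038), DESeq2 (0.021), limma-voom (0.039) and libraries of 1 naming style (0.049). Per exon length Atp6v0d2 made up 7.76% ± 2.2 of V0 d transcripts in spleen, 2.86% in bone, 1.04% in muscle, 1.43% in the skin and 2.14% in heart. Of 6 osteoclast markers Calcr, Ocstamp, Dcstamp and Oscar were at 0 in all spleen and bone libraries. Mmp9 was 1.74 to 6.7 CPM in spleen and 37.1 to 45.7 in bone. In muscle it was 26 to 67.1, in skin 16.4 to 46.1 and in heart 25 to 40.6 CPM. Acp5 was 55.3 to 88.2 CPM in spleen and 46.2 to 54.3 in bone. Its levels in muscle, skin and heart were 33.6 to 40.3, 24 to 32.8 and 37.3 to 51.4 CPM. The list summed to 60.8 to 93.5 CPM in spleen and 91.1 to 91.9 in bone. For muscle, skin and heart the sums were 66.8 to 101, 45.7 to 78.9 and 62.2 to 92.3 CPM. Macrophage and monocyte markers summed to 13.6 to 24.6 CPM in muscle and 23.9 to 43.2 in spleen, and the part of either cell type in the lower Atp6v0d2 was not tested.

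Atp6v0b encodes a proteolipid of the rotor ring. It was 6.68 to 13.2 CPM in spleen (median 11.9), 10.98, 10.1 and 11.1 in bone, 17.3, 16.3 and 8.28 in muscle, 34.7, 20.9 and 20.7 in the skin, and 14.03, 17.9 and 18.6 in heart. Only skin and heart lay above all spleen libraries. It rose in skin, by 0.97 ± 0.30 (log2, adjusted p = 0.016). This call ended without skin 1, without spleen 1 and 2 together and with limma-voom (adjusted p at most 0.17). The other log2 fold changes were 0.14 in bone, 0.53 in muscle and 0.64 in heart, where it passed without heart 1 (adjusted p = 0.045). Atp6v0e also rose in skin, by 0.48 ± 0.17 (0.04). Its call was lost without skin 1, skin 3 or spleen 3 and with libraries of 1 naming style (at most 0.2). Of the a subunits per exon length, with Atp6v0a2 and Tcirg1 added, Atp6v0a1 made up 9.92% ± 0.62 in spleen and 11.9%, 16%, 18.2% and 21.3% in bone, muscle, skin and heart. The share of Atp6v0a2 was 62.7% in spleen and 41% to 49.9% in the injured tissues, and that of Tcirg1 27.4% and 33.3% to 41.8%.

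**Figure D3:**
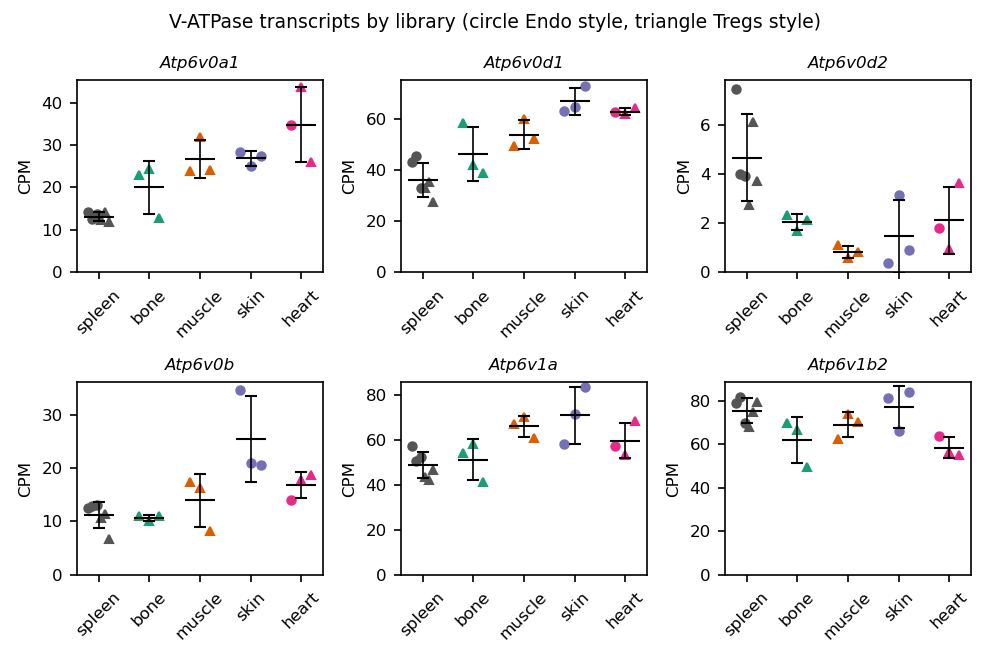
TMM-scaled CPM (y axis, from 0) of 6 proton pump members in each library by tissue (x axis), with circles for the Endo and triangles for the Tregs naming style, and black bars for the mean ± SD. Atp6v0d2 is at most 3.62 CPM in the injured libraries.

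Of the 10 tested V1 subunits 1 rose in muscle, 3 rose in the skin, and 0 passed in bone or heart, where 1 and 3 had an unadjusted p below 0.05. This is 10% in muscle and 30% in the skin, beside 25.5% and 27.8% of all genes tested. In bone and heart 14.8% and 20.3% of all genes were called. The summed V1 level was 447 ± 16.5 CPM in spleen and 408, 484, 532.5 and 472 in bone, muscle, skin and heart. Atp6v1a encodes the catalytic A subunit. It was 41.9 to 57.3 CPM in spleen (median 48.5), 54.2, 58.1 and 41.0 in bone, 67.1, 69.9 and 60.9 in muscle, 58.1, 71.2 and 83.2 in the skin, and 57.2, 53.1 and 68.2 in heart. Muscle and skin lay above all spleen libraries. Its log2 fold change was 0.57 ± 0.16 in muscle (adjusted p = 0.011), which the replicate block ended (0.22). In skin it was 0.39 ± 0.16 (0.083), and it passed there without skin 1 (0.02). In bone and heart it was 0.20 and 0.32. In skin Atp6v1e1 rose by 0.48 ± 0.15 (0.021), Atp6v1h by 0.44 ± 0.15 (0.032) and Atp6v1g1 by 0.55 ± 0.20 (0.045), all stalk or stator subunits. These 3 calls were each lost without 1 or more of the libraries skin 1, 2 or 3 and spleen 1, 2 or 3 (adjusted p at most 0.18, 0.2 and 0.15). All 3 were also lost with limma-voom and without spleen 1 and 2 together. Atp6v1b2, the B subunit, passed nowhere, at -0.27, -0.12, -0.01 and -0.36 in bone, muscle, skin and heart. Atp6v1g1 made up 89.5% to 97.1% of G subunit transcripts per exon length, and Atp6v1g3 at most 1.98%, by group means. The accessory subunits Atp6ap1 and Atp6ap2 passed in no comparison with spleen, although both had an unadjusted p below 0.05 in skin, at 0.43 and 0.39 (log2). Leaving out 1 library let them pass there, spleen 5 or 6 for Atp6ap1 (adjusted p = 0.041 and 0.038) and skin 1 or spleen 4, 5 or 6 for Atp6ap2 (0.034 to 0.045).

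Of 10 tested cysteine cathepsins 3 rose and 1 fell in muscle and in skin, 3 rose in heart, and 0 passed in bone, where 2 had an unadjusted p below 0.05. These are 0%, 40%, 40% and 30% in bone, muscle, skin and heart, beside 14.8%, 25.5%, 27.8% and 20.3% of all genes tested. Ctsh, an aminopeptidase, had the largest mean log2 fold change of the members named by size, 1.99 over the 4 comparisons. It lay at 2.32 to 14.7 CPM in spleen, with a median of 9.35. It was 28.8, 26.0 and 20.4 CPM in bone, 27.4, 44.7 and 23.2 in muscle, 30.8, 40.8 and 31.6 in the skin, and 64.9, 62.9 and 60.4 in heart. All injured libraries lay above all spleen libraries, and the heart libraries above all others. Against bone, muscle and skin the heart value did not pass (adjusted p = 0.059, 0.39 and 0.7). Heart against bone passed with DESeq2 (0.0041), limma-voom (0.02), no filter (4.3e-07) and without spleen 1 and 2 together (0.0032). Heart against muscle passed with no filter (3.5e-04). Against spleen the log2 fold change was 1.49 ± 0.45 in muscle (adjusted p = 0.023), 2.49 ± 0.49 in skin (0.0012) and 2.84 ± 0.45 in heart (0.0019), and 1.15 ± 0.45 in bone (0.1). The bone value passed without spleen 1 (0.042), without spleen 3 (0.0039) and without spleen 1 and 2 together (0.0043). It also passed with no style term (0.02), no filter (5.1e-05), DESeq2 (0.034) and libraries of 1 naming style (0.0098). The muscle call was lost without muscle 2, spleen 5 or spleen 6 and with limma-voom (at most 0.096). The replicate block moved the value to 2.48 in muscle and 3.7 in heart. The skin value moved to 1.5 without spleen 1 and 2 together and to 3.74 without spleen 3. Spleen 1 and 2 were the lowest libraries, at 2.32 and 2.77 CPM, and the other spleen libraries lay at 6.89 or more. Macrophage and monocyte markers summed to 82.6, 16.7 and 9.52 CPM in heart 1, 2 and 3, and dendritic cell markers to 33.6, 16.6 and 22.3. The part of either cell type in the heart Ctsh level was not tested.

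Ctsz, a carboxypeptidase, was 23.8 to 31.6 CPM in spleen (median 27.3), 40.5, 28.9 and 38.9 in bone, 39.2, 49.9 and 40.2 in muscle, 75.2, 70.8 and 57.2 in the skin, and 49.8, 52.5 and 50.8 in heart. Only bone b overlapped spleen. The log2 fold change was 0.57 ± 0.18 in muscle (adjusted p = 0.02), 1.34 ± 0.18 in skin (5e-06) and 0.86 ± 0.15 in heart (8.8e-04), and 0.31 ± 0.18 in bone (0.28). The muscle call was lost without muscle 2 or spleen 4 and with limma-voom (at most 0.11). Ctsb, an abundant cathepsin with both endopeptidase and carboxypeptidase activity, was 152 to 218 CPM in spleen (median 191), 219, 187 and 183 in bone, 225, 322 and 231 in muscle, 320.5, 279 and 248 in the skin, and 206, 237 and 226 in heart. It rose by 0.52 ± 0.15 in muscle (0.013) and by 0.46 ± 0.15 in skin (0.026), and was 0.12 in bone and 0.24 in heart. Both calls were lost when 1 library was left out, muscle 2 or spleen 4 for muscle, and skin 1, skin 2 or spleen 3 for skin. The replicate block also ended the muscle call, and leaving out spleen 1 and 2 together the skin call (at most 0.13 and 0.089 in all).

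Ctss, which trims the invariant chain in antigen-presenting cells, was the highest member per exon length in every tissue, at 142 CPM per kb in spleen and 148 in skin. It was 155 to 252 CPM in spleen (median 177), 134, 125 and 150.2 in bone, 134, 103 and 127 in muscle, 228, 200.5 and 172 in the skin, and 143, 187 and 159 in heart. Muscle and bone lay below all spleen libraries. It fell by 0.43 ± 0.14 on the log2 scale in muscle (adjusted p = 0.029). This call ended without muscle 2, spleen 4, spleen 5 or spleen 6 and with no filter (at most 0.14). The other log2 fold changes of Ctss were -0.26, -0.18 and -0.17 in bone, skin and heart. Ctsl was 3.66 to 18.8 CPM in spleen (median 7.33), 2.70, 10.2 and 10.6 in bone, 3.70, 7.70 and 5.96 in muscle, 13.3, 6.44 and 8.04 in the skin, and 4.33, 4.72 and 4.57 in heart. Its libraries overlapped and it did not pass, except in heart without spleen 6 (adjusted p = 0.039, log2 fold change -1.23). Of the rest, Ctsc, Ctso, Ctsf and Ctsk did not pass against spleen.

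Ctsw, a cathepsin known from cytotoxic T and NK cells, was the 1 member that passed between heart and each of the other injured tissues. It was 6.05 to 29.5 CPM in spleen (median 21.5), 9.98, 10.8 and 14.1 in bone, 18.6, 11.01 and 11.7 in muscle, 9.88, 7.45 and 7.40 in the skin, and 38.6, 53.6 and 43.1 in heart. The heart libraries lay above all others, and skin overlapped spleen only through spleen 6, the lowest spleen library. The log2 fold change against spleen was 1.20 ± 0.36 in heart (adjusted p = 0.035) and -1.54 ± 0.37 in skin (0.0031), and -0.36 and -0.60 in muscle and bone. The heart call against spleen was lost without spleen 2, 3 or 5 or any 1 heart library. It was also lost without spleen 1 and 2 together and with libraries of 1 naming style (at most 0.11 in all). Without spleen 1 and 2 together the skin call was lost as well (0.1). The bone value passed without spleen 6 (0.021). The replicate block let muscle pass (-0.82, adjusted p = 0.013). Heart was higher than bone by 1.90 ± 0.37 (0.0037), than muscle by 1.66 ± 0.36 (0.041) and than skin by 2.60 ± 0.42 (0.0011). The call against muscle was lost without muscle 2, muscle 3, heart 2 or heart 3 and with limma-voom (at most 0.21). The summed level of 6 CD8 T and NK cell markers was 17.0 to 28.3 CPM in heart. Spleen had 27.3 to 44.5 CPM of these markers, bone 30.0 to 34.4, muscle 29.5 to 38.3 and skin 33.4 to 44.1, and their part in the Ctsw levels was not tested. Cd8b1 alone made up 12.3 to 15.2 CPM of the heart sums.

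Ctsd, the main aspartic cathepsin, was 116 to 206 CPM in spleen (median 141), 133, 131 and 128 in bone, 116, 181 and 139 in muscle, 167, 127 and 132 in the skin, and 109, 127 and 139 in heart, and passed nowhere except in skin without spleen 3 (adjusted p = 0.016). Its log2 fold change was 0.01, 0.17, -0.36 and -0.23 in bone, muscle, skin and heart, and 34.4% of its exonic bases are shared with Gm49369 on the same strand, so its counts are uncertain. Ctse, the other aspartic cathepsin, did not pass either. Ctsa, a serine carboxypeptidase that also protects galactosidase and neuraminidase in the lysosome, was 55.3 to 78.2 CPM in spleen (median 68.7), 95.8, 97.1 and 86.7 in bone, 74.6, 121 and 99.2 in muscle, 194, 140.2 and 123 in the skin, and 88.7, 92.5 and 106 in heart. Muscle 1 alone overlapped spleen. It rose by 1.13 ± 0.19 in skin (6.7e-05), 0.56 ± 0.19 in muscle (0.028) and 0.51 ± 0.15 in heart (0.03), and was 0.48 ± 0.19 in bone (0.085), where it passed without spleen 6 (0.042). The muscle call was lost without muscle 2, muscle 3, spleen 4 or spleen 5, and with limma-voom or the replicate block (at most 0.18). The heart call was lost without spleen 4, spleen 5, heart 2 or heart 3, and with libraries of 1 naming style or the replicate block (at most 0.12). Of the Ctsa exons 17.4% of the bases overlap Neurl2 and Pltp on the other strand.

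Between injured tissues 0% to 5.71% of the members tested were called, beside 0.452% to 8.11% of all genes tested. Of 35 members 0 differed between bone and muscle, where 4.86% of all genes were called (2.57% higher, 2.29% lower), 6 members had an unadjusted p below 0.05, and DESeq2 and limma-voom also called 0. Between muscle and skin it was also 0, against 1.31% of all genes (0.621% higher, 0.692% lower), with 7 at an unadjusted p below 0.05 and 0 with both other tools. Between bone and skin 2 members were lower in bone (8.11% of all genes called, 3.56% higher and 4.55% lower): Ctsz by 1.03 ± 0.25 on the log2 scale (adjusted p = 0.013) and Lamp2 by 1.12 ± 0.24 (0.005). Lamp2 lost this call without spleen 1 and 2 together (0.059). In heart 1 of 35 members, Ctsw, was higher against bone (6.68% of all genes called, 4.02% higher and 2.66% lower), against muscle (0.452%, 0.358% and 0.0942%) and against skin (2.38%, 1.49% and 0.892%). With no naming style term 12 members were called between bone and skin and 4 between muscle and skin. All genes called rose too, from 1267 to 2814 and from 205 to 749 of 15617. Comparisons of skin with bone or muscle rest also on the difference between the spleen styles.

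Other lysosomal genes, from 7 lists, are given for context. Of 31 other hydrolases and activators 5 rose and 1 fell in bone, 8 and 3 in muscle, 11 and 4 in the skin and 6 and 4 in heart. These were 19.4%, 35.5%, 48.4% and 32.3% of the list, beside 14.8%, 25.5%, 27.8% and 20.3% of all genes tested, the shares against which the counts of the other lists can also be read. Legumain (Lgmn), which processes cathepsins, rose in all 4 tissues, from 13.1 ± 4.84 CPM in spleen to 41.4 ± 11.4 in bone, 46.8 ± 16.9 in muscle, 147 ± 19.5 in the skin and 86.6 ± 9.34 in heart, with log2 fold changes of 1.93, 2.11, 3.23 and 2.81. Gm2a, the activator of ganglioside breakdown, rose by 1.68, 2.16, 2.21 and 1.71, and Lipa, the acid lipase, fell by 0.52, 0.75, 0.92 and 0.98 on the log2 scale. Sgsh fell in the skin and heart, by 1.15 and 1.04. Among 13 tested membrane proteins 3, 2, 1 and 2 rose in bone, muscle, skin and heart, and 1 fell, in skin. Laptm4b rose by 1.48, 2.05, 2.45 and 2.04, and Tcirg1 by 0.84, 0.95 and 0.76 in bone, muscle and heart. Ctns fell by 0.95 in the skin, and Npc1 rose in bone, by 0.53.

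Of the MiT/TFE factors 1 of 3 tested rose in muscle and 1 in skin: Tfe3, by 0.56 ± 0.18 (adjusted p = 0.022) and 0.65 ± 0.18 (0.0091). In bone and heart its log2 fold change was 0.51 (0.054) and 0.31 (0.22), and Tfeb did not pass. Of 12 Ragulator, Rag and folliculin genes 1, 1, 3 and 1 rose in bone, muscle, skin and heart, with Fnip2 higher by 3.08, 3.16, 2.70 and 3.02. Of 8 genes of mannose 6-phosphate sorting 1, 1, 2 and 2 rose and 1, 3, 3 and 2 fell. M6pr rose by 0.42, 0.97, 0.82 and 0.63, Gnptg rose in the skin and heart by 0.92 and 0.82, and Gga2 fell in muscle by 1.35. Sort1 was at 0 in all 3 heart libraries. Of 7 genes of V-ATPase assembly 1 rose in each tissue and 1, 2, 2 and 2 fell. Dmxl2 rose in bone, muscle and heart (3.85, 3.27 and 4.02) but did not pass in skin, and its mean over the 4 comparisons was 2.66. Dmxl1 fell in muscle, skin and heart by 0.82, 0.50 and 0.65. Ncoa7 fell in all 4 by 0.66, 0.50, 0.52 and 0.61, and Oxr1 rose in skin by 0.47. Of 8 cathepsin inhibitors 3, 4, 5 and 5 rose. Ctla2a rose by 3.77, 4.70, 4.86 and 6.05; its near-identical copy Ctla2b makes both uncertain. Serpina3g fell by 1.72 in the skin and 0.59 in heart.

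**Figure D4:**
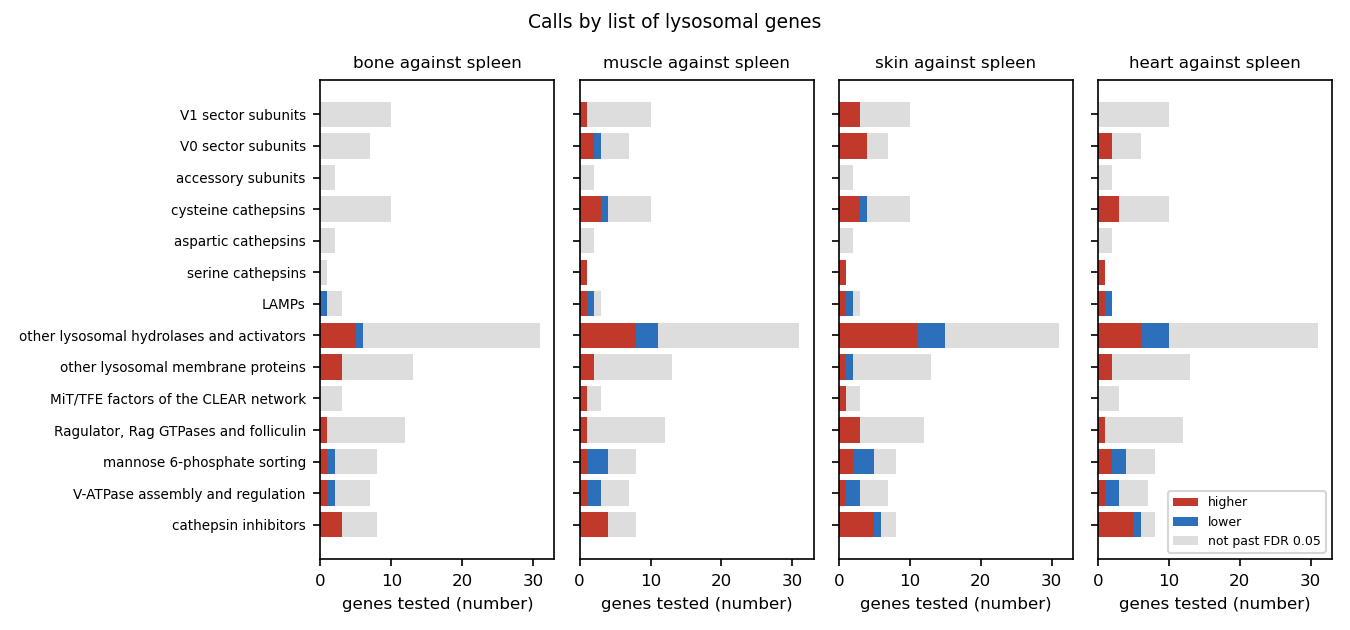
Number of tested genes (x axis) of each list (y axis) that were called higher, called lower or did not pass FDR 0.05, in 4 panels of tissue against spleen. The V1 list holds 10 tested genes, of which 0 were called in bone and in heart.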

How the data were processed

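Raw counts per gene were deposited by the authors in 2 tables. The submitters' processing notes name STAR, featureCounts, limma and GRCm38 without versions. The sources used here give no annotation release, strand setting or handling of multi-mapping reads. Totals ran from 5970346 to 22635760 counts per library, and low-count members are correspondingly imprecise. Positions and exon lengths come from GENCODE M21 (45143 genes, 98%, matched).

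Genes were filtered with filterByExpr, scaled by TMM and tested with edgeR 4.0.16 (robust quasi-likelihood F test) in R 4.3.3 with group and naming style in the model: bone, muscle, skin and spleen together, heart with spleen, and all 18 libraries for heart against other tissues. Adjusted p-values are Benjamini-Hochberg over all genes at FDR 0.05, and the SE was derived from F. The p-values measure spread between libraries, pools of 3 mice in injured tissue. The script was tested on simulated data.

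Library values are given for the 12 members of largest mean fold past FDR, for 7 fixed members, and for members differing between injured tissues; of other lists, up to 2 highest and 2 lowest. Members and lists were chosen with earlier results of these data known. Alternatives used no style term, the replicate block, RLE, other filters, DESeq2 1.42.0, limma 3.58.1 (voom) and left-out libraries.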

Additional observations from a re-analysis of the deposited data

Results flagged for a closer look

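Among 35 groups of members with at least 4 libraries that were examined for a library far from the rest, 1 stood out, and chance alone flags about 1 in 20. Lamp3 in spleen was 1.97 CPM in spleen 6, while the next highest of the 6 libraries was 0.387 CPM; this gap was 0.877 of the whole range. Lamp3 is known from mature dendritic cells. The summed level of 8 dendritic cell markers was 10.7 CPM in spleen 6 and 4.14 to 94.6 CPM over the spleen libraries, and its part in the Lamp3 value was not tested.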

How the results depend on the processing

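Of 65 pairs of a named member and a comparison, 35 were called. Under all alternatives 17 of these kept their call, 18 lost it under 1 or more, and 0 changed sign; the causes were not tested. The count of members called in bone against spleen (1) became 4 with no style term, 2 without small RNA genes, 4 with no filter, 2 with DESeq2, 3 without spleen 1 and 2 together and 2 with libraries of 1 style. For bone, all genes called in these settings were 2111 to 2778, beside 2312 in the main model. In skin against spleen (14) the count of members became 7 without spleen 1 and 2 together. All genes called there fell from 4342 of 15617 to 2548 of 15323. In heart against spleen (8) it became 5 with libraries of 1 style, where all genes called fell from 3043 of 15025 to 2037 of 14890. Bone against skin (2) became 12 with no style term, while all genes called went from 1267 to 2814 of 15617. Muscle against skin (0) became 4 with no style term and 1 with no filter, with all genes called at 749 and 618, beside 205. Heart against bone (1) became 2 with no style term, RLE, no filter or limma-voom, 4 with DESeq2 and 3 without spleen 1 and 2 together. All genes called there were 856 to 1630, beside 1064 in the main model. Heart against muscle (1) became 2 with no filter and 0 with limma-voom, where 380 and 65 of all genes were called, beside 72. Heart against skin (1) became 3 with no style term, 2 with no filter or DESeq2 and 3 without spleen 1 and 2 together. All genes called in these settings were 638 to 909, beside 379.

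Leaving out 1 library at a time gave 1 to 3 members in bone against spleen, 5 to 11 in muscle (5 without muscle 2, 7 without spleen 4 or spleen 5), 11 to 16 in skin and 5 to 9 in heart (5 without heart 2). It gave 0 to 0 in bone against muscle and muscle against skin, 2 to 3 in bone against skin, 1 to 2 in heart against bone, 0 to 1 in heart against muscle and 1 to 1 in heart against skin. In bone 3 were called without bone c, spleen 3 or spleen 6 and 2 without spleen 1 or spleen 2. Heart against bone gave 2 without heart 3, and heart against muscle 0 without muscle 2, muscle 3, heart 2 or heart 3. Against spleen, all genes called ran from 1784 to 2604 in bone and 3257 to 4257 in muscle. Skin had 3368 to 4495 and heart 2241 to 2894. Bone against skin had 842 to 1167, heart against bone 429 to 1115 and heart against muscle 27 to 104.

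No pairing by replicate number was seen: same-number deviations correlated at -0.12 to 0.16 over 18 pairs, and 3 matched their own number best. With 3 libraries per group and naming styles that differ between some groups, this check cannot exclude pairing. With the replicate block 10 members were called in muscle, 13 in skin and 6 in heart against spleen. It gave 5 in muscle against skin, 1 in heart against muscle and 1 in heart against skin. Of all genes, 4707 and 4278 of 15176 were called in muscle and skin and 2582 of 15025 in heart against spleen. Muscle against skin had 1090 of 15176 called. Heart against muscle had 57 and heart against skin 806 of 15565. This block drops the style term and rests its spleen folds on spleen 1 to 3, so it does not isolate pairing. No paired analysis was possible for bone because the labels do not tie 2 of its columns to replicates 2 and 3.

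Signs turned only for members that had not passed. With no style term Atp6v0b in bone was -0.0757, Ctsd -0.255 in bone and -0.0958 in muscle, and Ctss 0.0353 in skin. Ctsd in bone was -0.0113 with RLE and with DESeq2, and in muscle -0.311 with the replicate block. Without spleen 1 and 2 together Ctsd was 0.1, Ctsl -0.161 and Ctss 0.147 in skin. With libraries of 1 style Ctsd was 0.0495 and Ctss 0.0965 in heart. Leaving out 1 library gave -0.0388 to 0.295 for Atp6v0b in bone, -0.745 to 0.00542 for Ctsw in muscle and -0.839 to 0.287 for Ctsl in bone. It gave Ctsd -0.0439 to 0.145 in bone, -0.025 to 0.314 in muscle and -0.34 to 0.0525 in heart, and Ctss -0.316 to 0.0989 in heart.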
